A study of Mus musculus with 16 samples.

Results

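The mitochondrial ribosomal protein genes are the nuclear genes named Mrpl or Mrps followed by a number, pseudogenes left out, and 78 of the 15571 genes in the deposited table met that rule. They were 49 genes named Mrpl and 29 named Mrps, and all 78 protein-coding genes of this pattern in the RefSeq gene table were present. All 78 passed the filter on low counts, the smallest count of any of them in any library being 53. They were followed in mouse CD4 T cells driven in culture toward Th17, the IL-17-producing helper class, in 4 groups of 4 RNA sequencing libraries. KO acetate cells carried PDH fl/fl alleles, meaning pyruvate dehydrogenase alleles flanked by loxP sites, together with CD4-Cre, and were differentiated in 10 mM sodium acetate. WT acetate cells carried PDH fl/fl alleles without Cre and received the same acetate. KO untreated cells were PDH fl/fl with CD4-Cre and no added acetate, and WT untreated cells were PDH fl/fl without Cre and without acetate. All groups therefore shared the loxP-flanked alleles, and no group controlled for Cre alone or for sodium. CD4-Cre acts in the T cell lineage from its development in the thymus onward. Every culture began with naive CD4 T cells from spleen and lymph nodes and ran for 3 days on plate-bound anti-CD3 (5 µg/mL) with anti-CD28 (1 µg/mL), IL-6 (30 ng/mL), TGFβ (2 ng/mL) and anti-IFNγ (5 µg/mL). The sample titles write PHD where the protocols write PDH, and no age or sex of the mice is given. Since nothing in the labels ties a library to its own mouse or its own dish, the spread that the tests use may be technical.

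The mitochondrial ribosome, or mitoribosome, translates the few messages of mitochondrial DNA, all of which encode core subunits of the respiratory chain and the ATP synthase. Its RNAs come from mitochondrial DNA, while every protein of it is made from a nuclear gene in the cytosol and imported. It has a large subunit, which joins amino acids, and a small subunit, which reads the message. Part of its proteins descend from those of bacterial ribosomes and the rest were added in mitochondria. T cells build up mitochondria after activation, and loss of mitochondrial translation is known to limit their effector functions. In structural work the proteins Mrps30 and Mrps18a were found in the large subunit despite their names, and Mrps36 was found to belong to the 2-oxoglutarate dehydrogenase complex of the citric acid cycle and is also called KGD4. By structure the genes were thus sorted into 51 of the large subunit, 26 of the small subunit, and Mrps36. Mrps18a and Mrps18b, extra relatives of bacterial S18 at places that bacteria do not fill, were counted with the proteins found in mitochondria only.

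Total estimated counts per library were 24.57 to 33.72 M. Levels are given as CPM, a gene's estimated count relative to its library total after TMM scaling, which sets the libraries level over most genes. A single gene with no name held 0.267% to 9.14% of the counts, and over 3% of them in KO acetate 2, KO untreated 1, KO untreated 2 and WT untreated 1, which are called the high-share libraries. The 5 T cell markers Cd3e, Cd3g, Cd3d, Cd4 and Trac summed to 953.2 to 1058 CPM in KO acetate, 1074 to 1155 CPM in WT acetate, 933.6 to 1031 CPM in KO untreated and 1192 to 1252 CPM in WT untreated libraries. The CD8 T cell markers Cd8a and Cd8b1 summed to 13.7 to 18.2, 13.1 to 17.2, 5.13 to 8.35 and 9.08 to 11.2 CPM in that order of groups. The 3 B cell markers summed to at most 2.43 CPM and the 2 of 4 myeloid markers that passed the filter to at most 3.44 CPM in any library. The part of the marker differences in the results was not tested. Pdha1, a subunit gene of the pyruvate dehydrogenase complex, was at 224.9 ± 11.5 CPM in KO untreated and 247.2 ± 12.6 CPM in WT untreated libraries (SD, n = 4 each, adjusted p = 0.0761). The labels do not name the deleted gene or exons, so this count does not check the genotype.

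Summed over the 78 genes, mitochondrial ribosomal protein messages averaged 3597 CPM in KO acetate and 3807 CPM in WT acetate libraries. They averaged 3799 CPM in KO untreated and 3764 CPM in WT untreated libraries. The sum was 3314, 3660, 3469 and 3945 CPM in the KO acetate libraries, and 3680, 3840, 3891 and 3817 CPM in the WT acetate libraries. It was 3844, 3694, 3708 and 3952 CPM in the KO untreated libraries, against 3818, 3805, 3721 and 3712 CPM in the WT untreated libraries. The KO acetate libraries spread the most, holding the lowest sum of the 16 libraries and one within 10 CPM of the highest. KO acetate 1, 2 and 3 lay below every library of the other groups, and the ranges overlapped through KO acetate 4. The differences between these sums were not tested. The large-subunit genes summed to 2416 ± 198.6 CPM in KO acetate, 2576 ± 64.1 CPM in WT acetate, 2545 ± 82.6 CPM in KO untreated and 2546 ± 38.5 CPM in WT untreated libraries (SD, n = 4 each). The small-subunit genes summed to 1146 ± 69.0, 1190 ± 31.0, 1225 ± 38.9 and 1179 ± 15.4 CPM in the same order. Per kilobase of annotated exon, the level was highest for Mrpl12, the large-subunit protein that recruits translation factors from the stalk, at 81.2 CPM per kilobase over all 16 libraries. It was lowest for Mrpl23, a protein near the exit of the peptide tunnel, at 0.658 CPM per kilobase. Mrpl23 has a pseudogene copy, Mrpl23-ps1, so its estimate is uncertain. In a bulk sample, fewer cells of a type and less RNA per cell cannot be told apart, and this holds for every level given here.

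**Figure D1:**
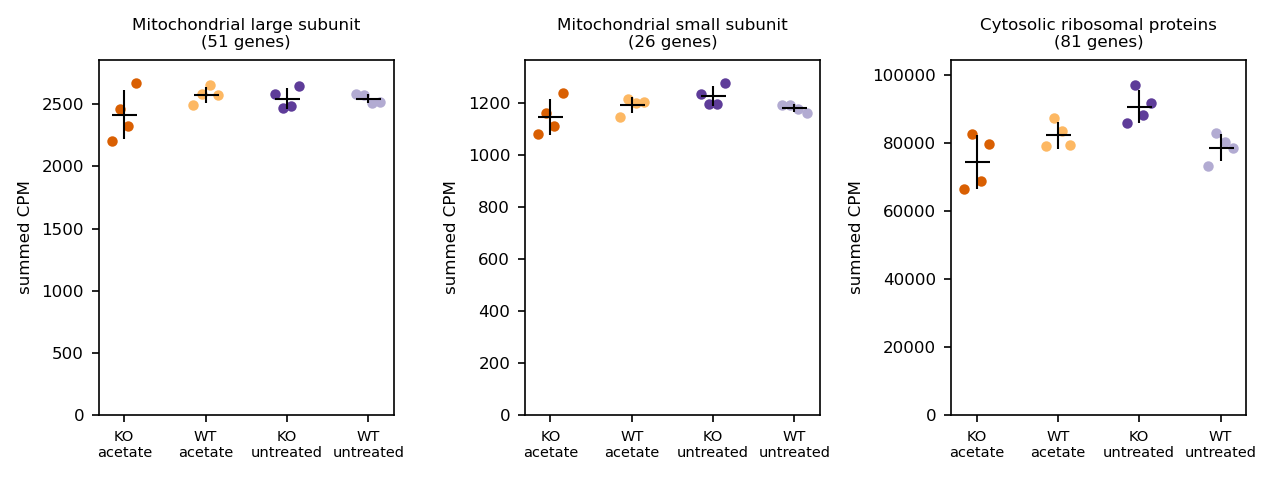
Summed CPM of the 51 large-subunit genes, the 26 small-subunit genes and, for comparison, 81 cytosolic ribosomal protein genes in each library (points), with mean ± SD of 4 libraries in black. Both mitochondrial sums overlap between KO acetate and each other group, with KO acetate libraries the most spread. For the large subunit that overlap rests on KO acetate 4. The cytosolic sums of all 4 KO untreated libraries (85816 to 96999 CPM) lie above those of all 4 WT untreated libraries (73188 to 82882 CPM).

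The comparison of KO untreated with WT untreated cells asks what loss of PDH went with in Th17 cells without acetate. In KO untreated cells 12 of 78 members rose and 13 fell, while their summed level stayed close to that of WT untreated cells. The largest rises were those of Mrpl54, Mrps28, Mrpl48 and Mrpl27, at 1.35 to 1.58 times the WT level, and the largest falls those of Mrpl34, Mrps36, Mrpl20 and Mrps12, at 0.72 to 0.752 times. The 12 members that rose (15.4%) stand beside 18% of all 14985 tested genes that rose, and the 13 that fell (16.7%) beside 18.6% that fell. In this fit the share called was thus near the background in both directions, and 36.6% of all tested genes were called either way. The calls are those of edgeR's quasi-likelihood test at an adjusted p under 0.05, as in all comparisons here. The median absolute log2 fold change was 0.13 over the members and 0.26 over all tested genes, and the members' median log2 fold change was −0.0019. By class, 4 of the 30 large-subunit genes with bacterial relatives rose and 6 fell, and 4 of the 21 large-subunit genes found in mitochondria only rose and 3 fell. In the small subunit 4 of 16 genes with bacterial relatives rose and 1 fell, and 2 of 10 found in mitochondria only fell. Without the 4 high-share libraries 8 members rose and 4 fell, beside 1577 and 1784 of all genes. With library totals in place of TMM 9 rose (11.5%) and 15 fell (19.2%), beside 12.8% and 21.5% of all tested genes. The number that fell was 7 without KO untreated 2, 7 without KO untreated 3 and 8 without WT untreated 2. Of all genes 2391, 2282 and 2442 fell in these fits.

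Mrpl54, a protein of the large subunit that bacteria lack and that sits near the base of the stalk, had the largest difference. It was at 63.3, 52.0, 51.5 and 58.2 CPM in KO untreated libraries, against 37.7, 33.6, 38.4 and 32.3 CPM in WT untreated libraries. The groups did not overlap, and the lowest KO untreated library was above the highest WT untreated library by over 10 CPM. The log2 fold change was 0.66 (SE 0.118, adjusted p = 0.000316). Mrps28, the small-subunit relative of bacterial ribosomal protein S1, was at 26.3, 26.2, 25.2 and 24.3 CPM in KO untreated libraries, against 16.1, 18.6, 16.2 and 16.7 CPM in WT untreated libraries. These groups were also apart, with a log2 fold change of 0.60 (SE 0.0891). Mrpl48, a protein of the central protuberance of the large subunit, was at 47.1, 45.6, 50 and 43.6 CPM in KO untreated libraries and 32.7, 34.7, 31.9 and 33.5 CPM in WT untreated libraries. Its log2 fold change of 0.49 (SE 0.0602) was the most precisely measured of the large rises. Mrpl27, whose bacterial relative reaches into the site where peptide bonds form, was at 42.3, 39.0, 41.5 and 36.6 CPM in KO untreated libraries, against 30.1, 29.6, 28.4 and 30.2 CPM in WT untreated libraries. Its log2 fold change was 0.43 (SE 0.0672), again with no overlap.

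Mrpl58, also called ICT1, is a peptidyl-tRNA hydrolase built into the large subunit that can release peptides from stalled mitoribosomes. It was at 37.0, 37.8, 37.9 and 40.0 CPM in KO untreated libraries, against 30.2, 33.7, 29.8 and 28.5 CPM in WT untreated libraries, so the groups were apart (log2 fold change 0.32, SE 0.0738). Mrps30, a large-subunit protein in spite of its name, was at 64.9, 75.2, 70.2 and 69.5 CPM in KO untreated libraries and 54.8, 57.5, 59.1 and 54.5 CPM in WT untreated libraries (log2 fold change 0.31, SE 0.0644). Mrpl10, the stalk protein that carries the copies of Mrpl12, was at 71.0 ± 5.09 CPM in KO untreated and 62.8 ± 1.08 CPM in WT untreated libraries (SD, n = 4 each). The call for Mrpl10 (log2 fold change 0.18, adjusted p = 0.0435) was lost in 11 of the 16 fits that left out 1 library. The other members that rose were Mrpl19, Mrpl32, Mrps6, Mrps10 and Mrps24, with log2 fold changes of 0.26 to 0.33. Exons of Mrps6 and Mrps24 overlap another gene on the same strand in the GENCODE vM21 annotation, so their estimates are less certain. Of the 12 rises, 7 were kept in every fit without 1 library, without the high-share libraries and with library totals, namely those of Mrpl27, Mrpl48, Mrpl54, Mrpl58, Mrps6, Mrps28 and Mrps30.

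Among the members that fell, Mrpl34, a small large-subunit protein with a bacterial relative, was at 18.9, 18.9, 16.7 and 20.5 CPM in KO untreated libraries, against 27.2, 28.0, 24.3 and 24.7 CPM in WT untreated libraries. Every KO untreated library was below every WT untreated library, with a log2 fold change of −0.47 (SE 0.104, adjusted p = 0.00157). Mrps36, the 2-oxoglutarate dehydrogenase component, was at 28.1, 26.9, 28.7 and 30.7 CPM in KO untreated libraries, against 42.4, 39.5, 37.1 and 35.8 CPM in WT untreated libraries. Those groups were apart as well (log2 fold change −0.44, SE 0.0942). Mrps12, whose bacterial relative S12 lines the decoding centre, was at 21.1, 18.4, 19.4 and 24.3 CPM in KO untreated libraries, against 30.4, 27.7, 27.2 and 25.2 CPM in WT untreated libraries. The groups came within 1 CPM of each other, and the log2 fold change of −0.41 (SE 0.104) became −0.29 without the high-share libraries, with an adjusted p of 0.134. Mrpl39, a large-subunit protein related in sequence to threonyl-tRNA synthetases, was at 41.0 ± 1.62 CPM in KO untreated and 49.8 ± 3.92 CPM in WT untreated libraries (log2 fold change −0.28, SE 0.0616). Mrpl18, a relative of a bacterial protein of the central protuberance, was at 70.3 ± 7.55 CPM in KO untreated and 88.9 ± 4.10 CPM in WT untreated libraries (log2 fold change −0.34, SE 0.0766). Mrpl44, which has a fold like that of RNase III, fell by 0.21 on the log2 scale, and its call was lost without KO untreated 2. The other members that fell were Mrpl4, Mrpl20, Mrpl28, Mrpl36, Mrpl50, Mrps23 and Mrps25, with log2 fold changes of −0.43 to −0.16. Of the 13 falls, 3 were kept in every fit without 1 library, without the high-share libraries and with library totals, namely those of Mrpl18, Mrpl34 and Mrps36. Mrps18a and Mrps18b, extra relatives of bacterial S18 at places that bacteria do not fill, were counted with the proteins found in mitochondria only.

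**Figure D2:**
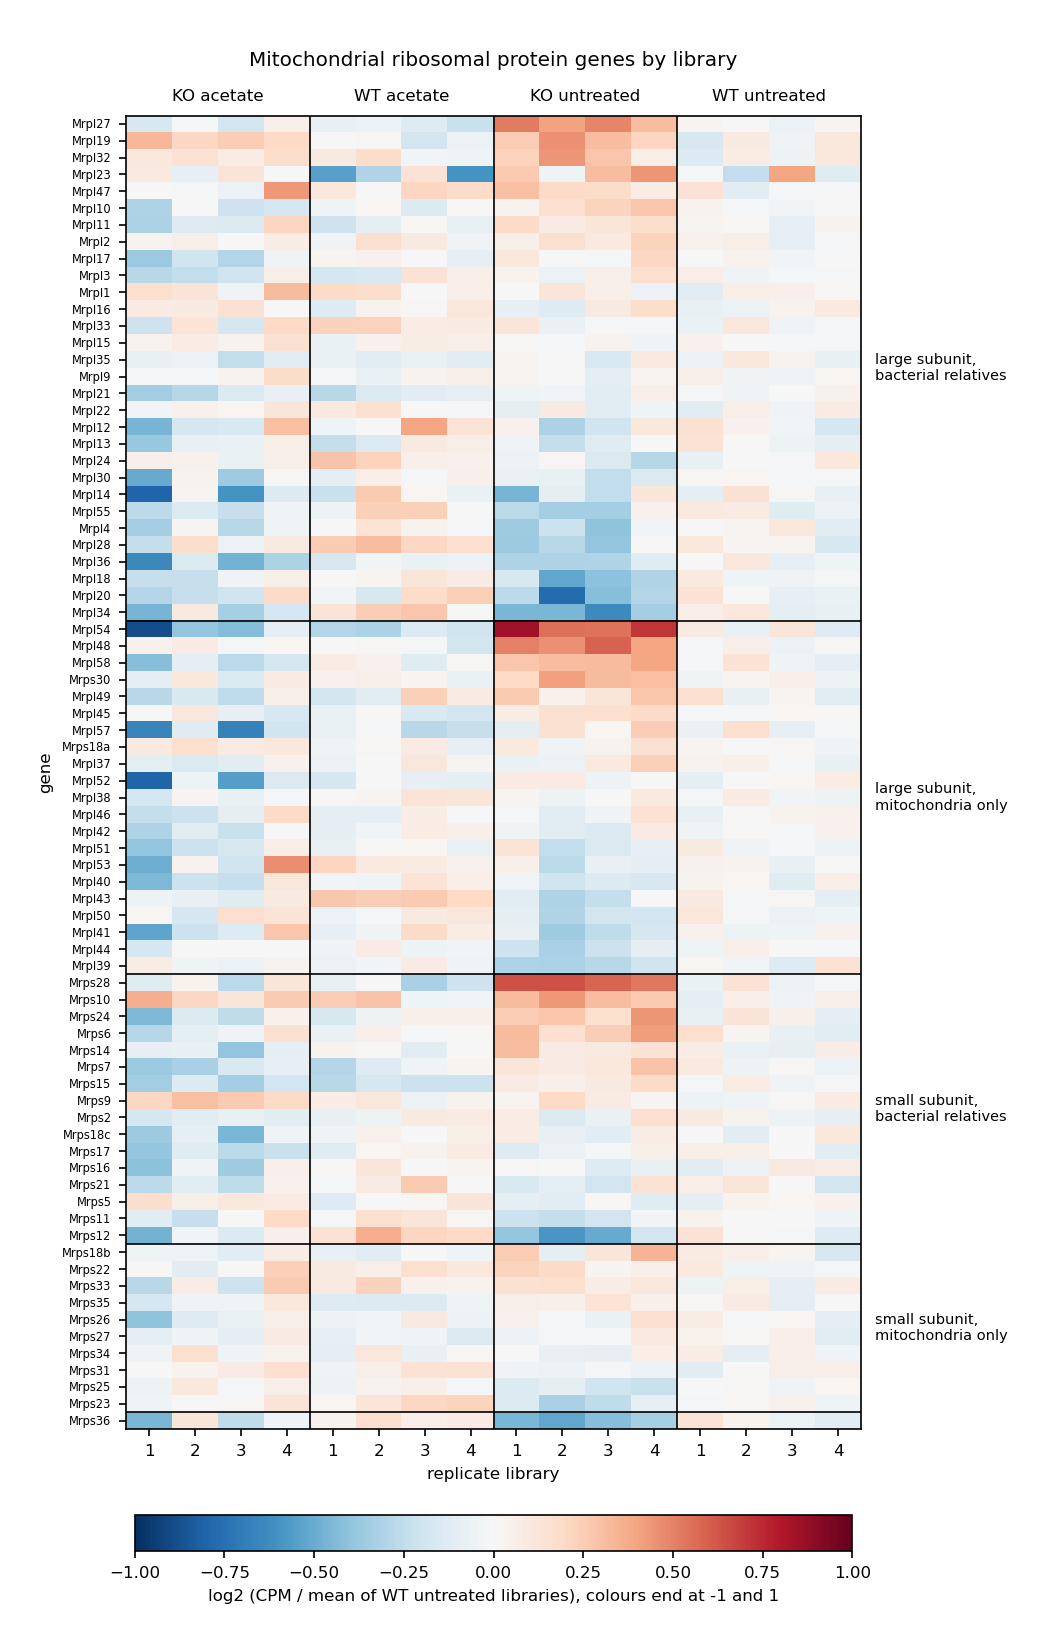
Log2 CPM in each library minus the mean log2 CPM of the WT untreated libraries for the 78 genes (rows), red above and blue below, with colours ending at −1 and 1. Rows are sorted within each structural class by the KO untreated against WT untreated difference, and the last row is Mrps36; Mrpl54 and Mrps28 are the strongest red in KO untreated libraries, and KO acetate 1 and 3 are bluer than KO acetate 2 and 4 for many genes.

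Promoters of members that rose and of members that fell are shown here. In all, 20 members changed in opposite ways in the comparisons of KO untreated cells with WT untreated and with KO acetate cells. How many of all tested genes did so was not counted. A window of 250 bases before to 50 bases after the start was found in the RefSeq promoter table (GRCm38.p6) for 69 of the 78 genes, with 75 windows in all. The windows of Mrpl27 (chr11:94653541-94653840, plus strand) and Mrpl58 (chr11:115403502-115403801, plus strand) stand for the rises, and those of Mrpl34 (chr8:71464676-71464975, plus strand) and Mrps12 (chr7:28741772-28742071, minus strand) for the falls. They were chosen after the values were seen, among members with 1 window that holds the letters CCGGAAG, printed in capitals. CCGGAAG is the core of sites for ETS factors such as the GA-binding protein, a known activator of nuclear genes for mitochondria.
Mrpl27: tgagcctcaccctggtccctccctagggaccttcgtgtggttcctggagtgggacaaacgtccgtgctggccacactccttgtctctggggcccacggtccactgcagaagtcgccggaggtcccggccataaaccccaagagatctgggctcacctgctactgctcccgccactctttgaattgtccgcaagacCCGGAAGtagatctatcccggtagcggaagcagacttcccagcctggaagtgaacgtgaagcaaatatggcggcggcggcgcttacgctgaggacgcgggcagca
Mrpl58: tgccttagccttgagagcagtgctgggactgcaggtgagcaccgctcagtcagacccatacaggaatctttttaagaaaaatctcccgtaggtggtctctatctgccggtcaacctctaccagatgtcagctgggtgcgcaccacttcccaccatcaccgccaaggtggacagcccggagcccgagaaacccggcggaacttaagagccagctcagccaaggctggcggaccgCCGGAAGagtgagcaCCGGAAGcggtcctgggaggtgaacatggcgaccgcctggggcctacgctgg
Mrpl34: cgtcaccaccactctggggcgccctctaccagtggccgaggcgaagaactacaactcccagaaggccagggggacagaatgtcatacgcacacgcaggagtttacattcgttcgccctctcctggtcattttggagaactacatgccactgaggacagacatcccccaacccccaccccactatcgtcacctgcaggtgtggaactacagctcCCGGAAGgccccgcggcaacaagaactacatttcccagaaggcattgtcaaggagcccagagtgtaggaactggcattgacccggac
Mrps12: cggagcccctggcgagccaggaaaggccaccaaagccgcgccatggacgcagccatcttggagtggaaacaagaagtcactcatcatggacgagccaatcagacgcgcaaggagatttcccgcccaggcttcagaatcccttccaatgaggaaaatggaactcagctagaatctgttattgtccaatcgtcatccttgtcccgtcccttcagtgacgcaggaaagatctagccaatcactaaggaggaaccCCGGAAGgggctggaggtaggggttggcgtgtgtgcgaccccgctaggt
The capitals lie at −55 to −49 in Mrpl27, at −17 to −11 and −2 to 5 in Mrpl58, at −37 to −31 in Mrpl34 and at 2 to 8 in Mrps12, counted from the start with −1 as the base before it. Each motif was searched on both strands. CCGGAAG stood in 26 of the 75 member windows (34.7%) and in 2910 of all 32851 windows of the table (8.86%). GCGC and TGCGC with any 1 base between them, the letters bound by nuclear respiratory factor 1, stood in 13 member windows (17.3%) and in 4.6% of all windows. AAGATGGCG, a YY1 site whose first 3 letters can be the last 3 of CCGGAAG, stood in 8 member windows (10.7%) and in 1.4% of all windows. The E-box CACGTG, a MYC site, stood in 7 member windows (9.33%) and in 7.15% of all windows. TGATG and AA with any 1 base between them, the letters of an ATF4 site, stood in 0 member windows and in 3.97% of all windows. The windows of all genes were not matched to the members by level or base content. CCGGAAG was present in 3 of 12 windows of members that rose in KO untreated cells, 4 of 12 of members that fell and 19 of 51 of members that were not called. The 12 windows of the rises belong to 9 of the 12 genes, 4 of them to Mrpl48, and none to Mrpl19, Mrpl54 or Mrps28. A match is a description of the letters and not a measured binding site.

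What acetate went with in cells that lack PDH is asked by setting KO acetate against KO untreated cells. With acetate 22 of 78 members fell and 13 rose in KO cells, the falls being led by Mrpl54, Mrps28, Mrpl58 and Mrpl27 at 0.467 to 0.705 times the KO untreated level. The largest rise was that of Mrpl20, at 1.24 times. Of all tested genes 43.7% were called either way. The falls made 28.2% of the members, against 21.6% of all tested genes, and the rises 16.7% of the members, against 22.1% of all tested genes. The median log2 fold change of the members was −0.085, and the median absolute value was 0.15 over the members and 0.29 over all tested genes. With library totals in place of TMM the median over all tested genes was 0.095 in place of −0.0093, and that of the members was 0.024. Then 15 members fell (19.2%) and 17 rose (21.8%), where 13.9% of all tested genes fell and 28.2% rose. The balance between falls and rises thus depended on the scaling, although relative to all genes the members' median was lower under both. Without the high-share libraries 21 members fell and 4 rose, beside 2637 and 2509 of all genes. The number that rose was also 7 without KO untreated 1, 4 without KO untreated 2, 6 without KO untreated 3, 6 without KO acetate 2, 7 without KO acetate 3 and 6 without KO acetate 4. In these 6 fits 2889 to 3316 of all genes rose, against 3314 in the fit of all libraries.

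In the small subunit 8 of the 16 genes with bacterial relatives fell and 3 rose, while 2 of the 10 found in mitochondria only rose. In the large subunit 6 of the 30 genes with bacterial relatives fell and 4 rose, and 8 of the 21 found in mitochondria only fell and 3 rose. Beside these class counts, 21.6% of all tested genes fell and 22.1% rose. Mrpl54 was at 19.1, 27.0, 26.2 and 33.0 CPM in KO acetate libraries, against the 51.5 to 63.3 CPM of the KO untreated libraries. It was the 1 member that changed over 2-fold in any comparison of groups (log2 fold change −1.1, SE 0.12, adjusted p = 1.14e-06). The share of all tested genes that changed so much was not taken. Mrps28 was at 15.5, 17.3, 14.0 and 18.3 CPM in KO acetate libraries, against 24.3 to 26.3 CPM in KO untreated libraries (log2 fold change −0.65, SE 0.0895). Mrpl58, the peptidyl-tRNA hydrolase, was at 22.7, 28.7, 25.3 and 27.1 CPM in KO acetate libraries, against 37.0 to 40.0 CPM in KO untreated libraries (log2 fold change −0.56, SE 0.0745). All 3 genes stood apart between the groups, and no KO acetate library exceeded the highest WT untreated library. Mrpl27 was at 26.4, 29.3, 26 and 30.6 CPM (log2 fold change −0.50, SE 0.0675) and Mrpl48 at 34.2, 35.1, 32.9 and 33.7 CPM (log2 fold change −0.46, SE 0.0603) in KO acetate libraries. Mrpl48 thus differed little between the KO acetate libraries, whose lowest value was 32.9 CPM, against a lowest value of 43.6 CPM in KO untreated libraries. Mrps15, a relative of bacterial S15, was at 43.2, 50.1, 43.5 and 48.2 CPM in KO acetate libraries, against 58.2, 57.0, 58.5 and 63.0 CPM in KO untreated libraries (log2 fold change −0.36, SE 0.059).

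Of the 5 stalk proteins Mrpl10, Mrpl11, Mrpl12, Mrpl53 and Mrpl54, which together bring translation factors to the ribosome, 3 fell in KO acetate cells (60.0%), where 21.6% of all tested genes fell. With library totals 2 of the 5 fell (40.0%), where 13.9% of all tested genes fell. Mrpl10 was at 50.8, 62.6, 54.4 and 56.0 CPM in KO acetate libraries, against 64.2, 70.5, 73.4 and 76.1 CPM in KO untreated libraries (log2 fold change −0.34, SE 0.0667). Mrpl11, the relative of the L11 protein at the stalk base, was at 49.9 ± 7.98 CPM in KO acetate and 58.2 ± 2.03 CPM in KO untreated libraries. Its call (log2 fold change −0.22, adjusted p = 0.0402) was lost in 8 of 16 fits without 1 library. Mrpl12 was at 117.0 ± 26.6 CPM in KO acetate and 118.0 ± 16.2 CPM in KO untreated libraries, and its libraries within a group differed by far more than these means (adjusted p = 0.956). Mrpl45, which ties the mitoribosome to the inner membrane at the tunnel exit, was at 91.2 ± 7.47 CPM in KO acetate and 103.0 ± 3.57 CPM in KO untreated libraries (adjusted p = 0.0240, lost without KO acetate 3 and without KO acetate 4). Its log2 fold change of −0.18 was −0.077 with library totals (adjusted p = 0.433). Of 6 proteins around the tunnel exit, Mrpl45 and Mrpl17 were called, and the fall of Mrpl17 was kept with library totals (log2 fold change −0.19, adjusted p = 0.0477). With library totals 1 of the 6 was called lower and 1 higher (16.7% each), where 13.9% of all tested genes were lower and 28.2% higher. Mrps18a, Mrps18b and Mrps18c are 3 relatives of a single bacterial protein, S18, that sit at different places of the mitoribosome. Mrps18c was at 27.0 ± 3.84 CPM in KO acetate and 31.3 ± 2.12 CPM in KO untreated libraries (adjusted p = 0.0474, lost in 12 of 16 fits without 1 library). Mrps18b averaged 58.0 ± 3.19 CPM in KO acetate and 66.3 ± 8.54 CPM in KO untreated libraries (adjusted p = 0.0579), and Mrps18a averaged 35.0 ± 0.851 CPM in KO acetate and 33.9 ± 1.86 CPM in KO untreated libraries (adjusted p = 0.567). Exons of Mrps18c overlap another gene on the same strand. Mrpl41, a large-subunit protein that bacteria lack, and Mrps27, a small-subunit protein of the pentatricopeptide repeat family, were not called, at 32.9 ± 7.68 and 40.8 ± 2.35 CPM in KO acetate libraries, against 30.9 ± 2.54 and 41.8 ± 1.97 CPM in KO untreated libraries. The other members that fell were Mrpl3, Mrpl21, Mrpl49, Mrpl52, Mrpl57, Mrps6, Mrps7, Mrps14, Mrps17, Mrps24 and Mrps30, with log2 fold changes of −0.48 to −0.18. Of the 22 falls, 15 were kept in every fit without 1 library, without the high-share libraries and with library totals. The 7 others were those of Mrpl3, Mrpl11, Mrpl21, Mrpl45, Mrpl49, Mrps17 and Mrps18c. With library totals their log2 fold changes were −0.22 to −0.077 and none was called, adjusted p being 0.0537 for Mrpl49 and 0.237 to 0.475 for the rest. Mrpl3 also lost its call in 8 of 16 fits without 1 library, Mrpl21 in 3 and Mrps17 in 1.

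Among the members that rose with acetate in KO cells, Mrpl39 was at 52.2, 48.2, 47.8 and 50.9 CPM in KO acetate libraries, against 40.1, 39.8, 40.9 and 43.3 CPM in KO untreated libraries. The groups were apart (log2 fold change 0.28, SE 0.0617, adjusted p = 0.00116), and the KO acetate mean of 49.8 CPM was also the WT untreated mean. Mrps25, a small-subunit protein that bacteria lack, was at 31.9, 35.5, 32.8 and 34.4 CPM in KO acetate libraries and 30.0, 31.1, 28.7 and 28.3 CPM in KO untreated libraries (log2 fold change 0.19, SE 0.0556). These 2 rises, of Mrpl39 and Mrps25, were the 2 of 13 kept in every fit without 1 library, without the high-share libraries and with library totals. Mrps36 was at 28.2, 42.1, 32.3 and 37.4 CPM in KO acetate libraries, overlapping the KO untreated libraries at 26.9 to 30.7 CPM. Its log2 fold change was 0.29 (SE 0.0945), and 0.13 without the high-share libraries (adjusted p = 0.372). The highest of these KO acetate values was that of the high-share library KO acetate 2. Mrps23 was at 73.2 ± 3.82 CPM in KO acetate and 62.7 ± 4.84 CPM in KO untreated libraries, Mrpl50 at 51.2 ± 5.13 and 43.5 ± 2.66 CPM, and Mrps5 at 88.1 ± 3.02 and 77.7 ± 3.42 CPM in the same order. The other members that rose were Mrpl18, Mrpl20, Mrpl28, Mrpl34, Mrpl44, Mrps9 and Mrps12, with log2 fold changes of 0.16 to 0.31.

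**Figure D3:**
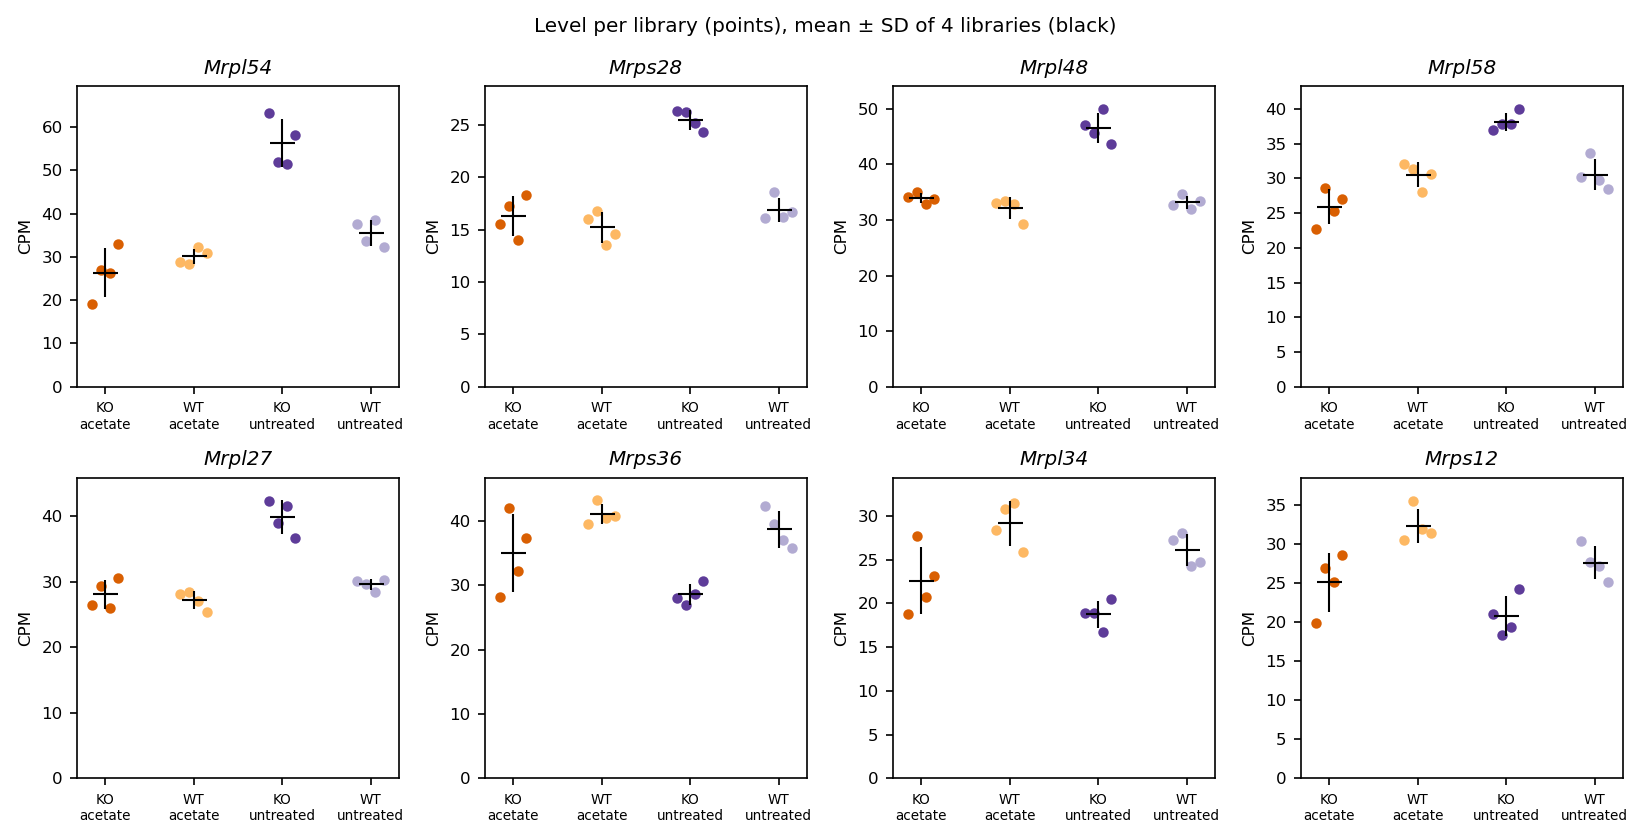
CPM of 8 members in each library (points) with mean ± SD of 4 libraries in black. Mrpl54, Mrps28, Mrpl48, Mrpl58 and Mrpl27 are higher in all 4 KO untreated libraries than in any other library, and Mrps36, Mrpl34 and Mrps12 are lower in KO untreated than in WT untreated libraries.

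Both comparisons above use the same 4 KO untreated libraries, so their changes are not independent of each other. Side by side, the 9 members Mrpl10, Mrpl27, Mrpl48, Mrpl54, Mrpl58, Mrps6, Mrps24, Mrps28 and Mrps30 were higher in KO untreated than in WT untreated cells and lower in KO acetate than in KO untreated cells. Another 11, namely Mrpl18, Mrpl20, Mrpl28, Mrpl34, Mrpl39, Mrpl44, Mrpl50, Mrps12, Mrps23, Mrps25 and Mrps36, went the other way in both. The remaining 5 calls of the first comparison were of Mrpl4, Mrpl19, Mrpl32, Mrpl36 and Mrps10, and the remaining 15 calls of the second were of other members. In all, 41 members were called in at least 1 comparison and 37 in none. Of all tested genes, 36.6% were called in the first comparison and 43.7% in the second. The share of all tested genes called in opposite directions in both was not counted. Nor was the share called in at least 1 comparison, so these member counts have no background beside them. Between any of the compared groups 4 members had an absolute log2 fold change over 0.5, a count for which no share of all genes was taken.

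**Figure D4:**
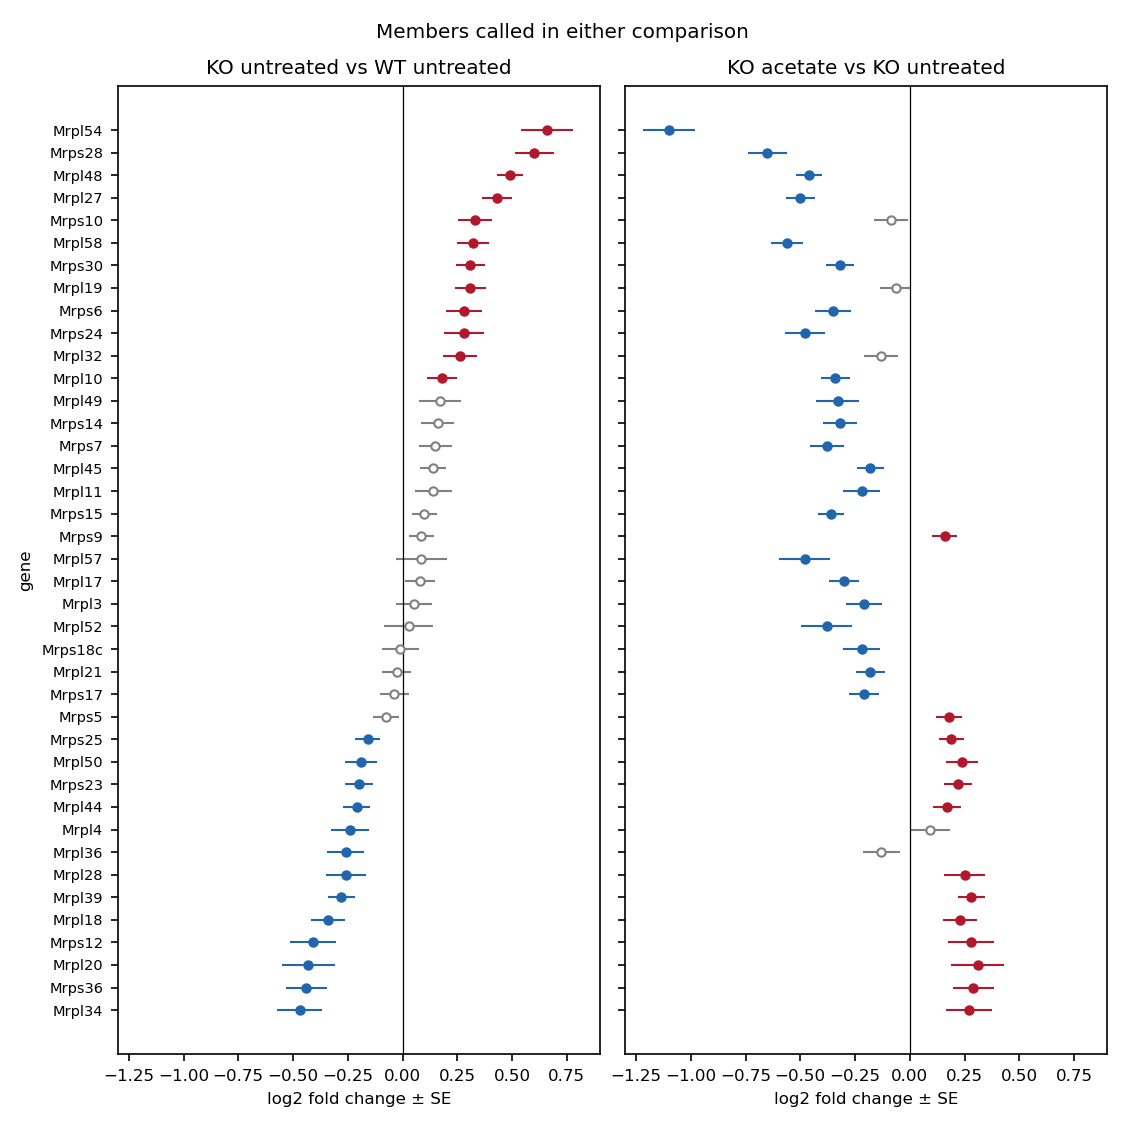
Log2 fold change ± SE of the 40 members called in KO untreated against WT untreated cells (left) or in KO acetate against KO untreated cells (right), red for a call higher, blue for a call lower and open grey for no call. The panels share the KO untreated libraries; Mrpl54 lies farthest from 0 in both, at 0.66 on the left and −1.1 on the right.

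Few members were called between WT cells with and without acetate. In WT acetate against WT untreated cells 1 of 78 members rose and 1 fell (1.28% each), where 7.89% of all tested genes rose and 7.55% fell, 15.4% in all. Mrpl43, a large-subunit protein that bacteria lack, was at 43.2, 42.5, 43.0 and 41.2 CPM in WT acetate libraries, against 38.1, 35.5, 36.1 and 33.7 CPM in WT untreated libraries. The groups were apart, with a log2 fold change of 0.25 (SE 0.0684, adjusted p = 0.0202). Mrps15 was at 45.4, 48.9, 47.5 and 47.4 CPM in WT acetate libraries, against 54.2, 58.0, 53.7 and 54.3 CPM in WT untreated libraries. It also stood apart, with a log2 fold change of −0.22 (SE 0.0588, adjusted p = 0.0167), and was thus lower with acetate in both genotypes. The call for Mrpl43 was lost without WT acetate 1, WT untreated 2 or WT untreated 4, and that for Mrps15 without WT acetate 1 or WT untreated 2. With library totals 2 members rose (2.56%, against 7.98% of all tested genes), and the call for Mrps15 was lost (adjusted p = 0.114). The median absolute log2 fold change was 0.057 over the members and 0.16 over all tested genes. Mrpl54 was at 28.9, 28.4, 32.2 and 30.9 CPM in WT acetate libraries, against 32.3 to 38.4 CPM in WT untreated libraries, a log2 fold change of −0.24 that was not called (adjusted p = 0.201).

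With acetate in both genotypes, KO and WT cells differed in the call of a single member. Mrpl19, a relative of a bacterial protein at the interface between the subunits, was at 75.7, 69.4, 71.3 and 69.0 CPM in KO acetate libraries, against 60.1, 60.5, 53.0 and 57.8 CPM in WT acetate libraries. Every KO acetate library was above every WT acetate library, and the log2 fold change was 0.30 (SE 0.070, adjusted p = 0.0428). That call was lost in 10 of 16 fits without 1 library. In KO acetate against WT acetate cells 1% of all tested genes were called, 0.487% higher and 0.514% lower. By edgeR 0 members were lower, with 21 at an unadjusted p under 0.05, a count for which no share of all genes was taken. DESeq2 called 6 members lower, beside 467 of all genes. The edgeR fit also gave 6 members lower without KO acetate 2 and 4 without KO acetate 4, beside 425 and 237 of all genes. The members' median log2 fold change was −0.11 and that of all tested genes 0.0074. Mrpl54 was at 26.3 ± 5.69 CPM in KO acetate and 30.1 ± 1.78 CPM in WT acetate libraries (adjusted p = 0.398). For Mrpl58 the levels were 26 ± 2.57 CPM in KO acetate and 30.5 ± 1.78 CPM in WT acetate libraries (adjusted p = 0.107). Mrpl43 came closest to a call below 0, at 34.9 ± 2.22 CPM in KO acetate and 42.5 ± 0.923 CPM in WT acetate libraries, with no overlap (adjusted p = 0.0527). The largest difference was that of Mrpl34, at 22.6 ± 3.86 CPM in KO acetate and 29.2 ± 2.51 CPM in WT acetate libraries (log2 fold change −0.37, SE 0.103, adjusted p = 0.0754).

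The difference of the acetate effect between genotypes was tested as an interaction, where a negative value means that the log2 change with acetate was lower in KO than in WT cells. It was called either way for 11.9% of all tested genes. It was below 0 for 8 members (10.3%), where 5.54% of all tested genes were called below 0, and above 0 for 1 member (1.28%), where 6.37% of all tested genes were. The interaction was −0.86 (SE 0.168, adjusted p = 0.00348) for Mrpl54, −0.56 (SE 0.105) for Mrpl58, −0.50 (SE 0.127) for Mrps28 and −0.41 (SE 0.0854) for Mrpl48. For Mrpl58, acetate went with a log2 change of −0.56 in KO cells and −0.001 in WT cells. The value was −0.39 for Mrpl27, −0.44 for Mrps24, −0.33 for Mrps30 and −0.31 for Mrpl10, with adjusted p of 0.013 to 0.0393. The WT acetate libraries held 33.1, 33.5, 32.8 and 29.2 CPM of Mrpl48, against 31.9 to 34.7 CPM in WT untreated libraries. They held 28.1, 28.4, 27.0 and 25.4 CPM of Mrpl27 and 16, 16.8, 13.5 and 14.6 CPM of Mrps28. For Mrpl27, Mrpl48, Mrpl54, Mrpl58 and Mrps28 the 4 KO untreated libraries were thus the 4 highest of all 16, and the other 3 groups overlapped in part. The 1 member above 0 was Mrpl39 (0.29, SE 0.0869, adjusted p = 0.0364), a call lost in 11 of 16 fits without 1 library. With library totals 4 members were called below 0, as were 4 without the high-share libraries, 5 without KO acetate 3 and 13 without KO acetate 4. Of all genes 442, 464, 577 and 915 were called below 0 in these settings. The calls below 0 of Mrpl48, Mrpl54 and Mrpl58 were kept in every fit without 1 library, without the high-share libraries and with library totals.

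Genes that work with these proteins were counted from lists of their known functions. Beside the counts below stand, for all tested genes, 18% higher and 18.6% lower in KO untreated against WT untreated cells, and 22.1% higher and 21.6% lower in KO acetate against KO untreated cells. With library totals these shares were 12.8%, 21.5%, 28.2% and 13.9% in the same order. Without the high-share libraries 1577 of all genes rose and 1784 fell in the first of these comparisons. In the second 2509 rose and 2637 fell. Besides the members, the mitoribosome has proteins with other names, and of 5 such genes 2 rose in KO untreated against WT untreated cells and 2 fell in KO acetate against KO untreated cells (40.0% each). Without the high-share libraries 1 rose in the first comparison and 1 fell in the second, and with library totals 1 rose and 1 fell in each. Dap3, a GTP-binding protein of the small subunit, was at 60.3 ± 5.00 CPM in KO acetate, 82 ± 1.85 CPM in KO untreated and 69.3 ± 5.08 CPM in WT untreated libraries. Chchd1, another small-subunit protein, was at 51.5 ± 7.32, 65.2 ± 8.37 and 48.4 ± 3.80 CPM in the same groups. Of 27 tested genes for assembly of the mitoribosome and modification of its RNA, 12 rose (44.4%) and 1 fell (3.7%) in KO untreated against WT untreated cells. In KO acetate against KO untreated cells 10 of them fell (37.0%) and 3 rose (11.1%). Without the high-share libraries the counts were 7 up and 1 down in the first comparison and 8 down and 2 up in the second. Mtg1, a GTPase that acts late in assembly of the large subunit, was at 17.5 ± 1.44 CPM in KO acetate, 30.7 ± 5.07 CPM in KO untreated and 18.0 ± 2.33 CPM in WT untreated libraries, a log2 fold change of −0.82 (SE 0.124) with acetate in KO cells and of 0.77 (SE 0.123) in KO against WT untreated cells. Mrm1 and Mrm3, methyltransferases of the large ribosomal RNA, had log2 fold changes of 0.54 and 0.49 in KO untreated against WT untreated cells. Nsun4, a methyltransferase of the small ribosomal RNA, was at 13.8 ± 0.528 CPM in KO acetate and 20.4 ± 0.289 CPM in KO untreated libraries, and at 13.2 ± 1.12 CPM in WT acetate and 16 ± 0.107 CPM in WT untreated libraries. Rbfa, which matures the small subunit, went the other way, at 48.0 ± 4.17 CPM in KO acetate, 37.3 ± 2.29 CPM in KO untreated and 46.3 ± 2.08 CPM in WT untreated libraries.

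Of 15 tested translation factors of mitochondria, 2 rose (13.3%) and 4 fell (26.7%) in KO untreated against WT untreated cells, where 18% of all tested genes rose and 18.6% fell. In KO acetate against KO untreated cells 4 rose (26.7%) and 1 fell (6.67%), where 22.1% of all tested genes rose and 21.6% fell. Mrrf, the factor that splits ribosomes after termination, was at 25.4 ± 1.54 CPM in KO acetate, 34.1 ± 2.01 CPM in KO untreated and 28.5 ± 0.619 CPM in WT untreated libraries. Tufm, the elongation factor that brings aminoacyl-tRNA, was at 114.8 ± 9.61, 89.2 ± 11.4 and 111.8 ± 6.21 CPM in the same groups. Lrpprc, which stabilises mitochondrial messages, was at 106.0 ± 6.67, 87.8 ± 6.30 and 102.6 ± 6 CPM. Of 17 tested genes for transcription, processing and copying of mitochondrial DNA, 2 rose (11.8%) and 5 fell (29.4%) in KO untreated against WT untreated cells, and 5 rose (29.4%) and 1 fell (5.88%) in KO acetate against KO untreated cells. Pnpt1, an RNA-degrading enzyme of mitochondria, was at 82 ± 5.08 CPM in KO acetate, 65.1 ± 3.97 CPM in KO untreated and 76.9 ± 1.33 CPM in WT untreated libraries. Without the high-share libraries, 1 gene of this last list rose and 2 fell in KO untreated against WT untreated cells, and 2 rose in KO acetate against KO untreated cells. In the same setting 1 translation factor rose in the first comparison, while edgeR called 0 lower (1 at an unadjusted p under 0.05), and 2 rose and 2 fell in the second. With library totals 7 translation factors (46.7%) and 8 genes of the last list (47.1%) rose in the second comparison, where 28.2% of all tested genes rose.

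Of 10 tested nuclear regulators of genes for mitochondria, 4 rose and 4 fell (40.0% each) in each of these comparisons, where 18% of all tested genes rose and 18.6% fell in the first and 22.1% rose and 21.6% fell in the second. Without the high-share libraries 4 rose and 2 fell in the first. Esrra, the estrogen-related receptor alpha, was at 25 ± 1.85 CPM in KO acetate, 12.2 ± 1.55 CPM in KO untreated and 19.4 ± 1.03 CPM in WT untreated libraries, and its interaction was 0.67 (SE 0.136, adjusted p = 0.00384). Myc, which drives growth and ribosome production, was at 404.5 ± 21.2, 599.4 ± 64.8 and 401.8 ± 40.4 CPM in the same groups, with an interaction of −0.50 (SE 0.118). Gabpb2, a subunit of the GA-binding protein, was at 108.6 ± 14.4, 188.1 ± 11 and 126.5 ± 8.69 CPM. Ppargc1b, a coactivator of these factors, was at 4.97 ± 0.457, 2.67 ± 0.255 and 4.96 ± 0.602 CPM. These levels lie beside the members' changes, and their part in them was not tested.

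The cytosolic ribosome, which makes all the members' proteins, was set beside the mitoribosome through 81 cytosolic ribosomal protein genes. In KO untreated against WT untreated cells 25 of the 81 rose (30.9%, against 18% of all tested genes), and in KO acetate against KO untreated cells 48 fell (59.3%, against 21.6% of all tested genes) and 1 rose. Their median log2 fold change was 0.18 in the first comparison and −0.27 in the second, where those of the mitochondrial members were −0.0019 and −0.085. Their sum was 66360, 82526, 68867 and 79652 CPM in KO acetate libraries, and 85816, 96999, 88160 and 91838 CPM in KO untreated libraries. The KO acetate libraries all lay below the KO untreated libraries, with KO acetate 1 and 3 lowest, the same libraries in which the mitochondrial sum was lowest. Without the high-share libraries 3 cytosolic genes rose in KO untreated against WT untreated cells, beside 1577 of all genes. In that setting 36 fell in KO acetate against KO untreated cells, beside 2637 of all genes. With library totals 10 rose in the first comparison (12.3%, against 12.8% of all tested genes), and 26 fell in the second (32.1%, against 13.9%). The interaction was below 0 for 24 cytosolic genes (29.6%, against 5.54% of all tested genes). It was below 0 for 10 with library totals (12.3%, against 2.95%) and for 11 without the high-share libraries, beside 464 of all genes. Whether the mitochondrial and cytosolic genes differed from each other in these changes was not tested, and reads shared with near-identical copies make cytosolic ribosomal protein estimates less certain.

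**Figure D5:**
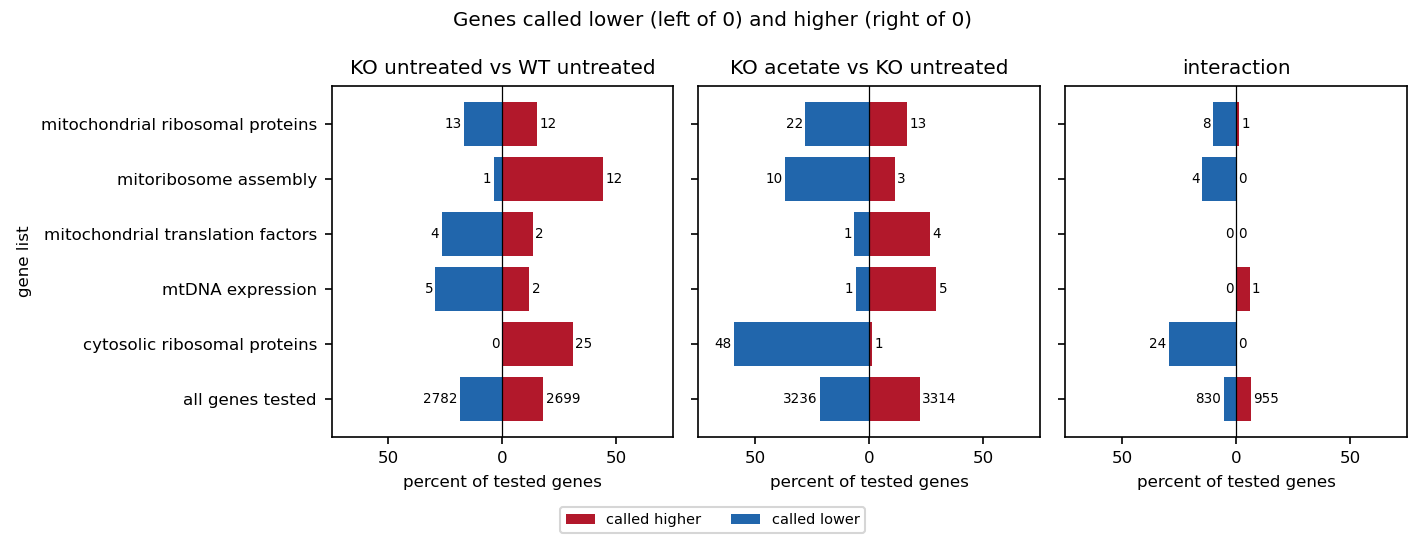
Percent of tested genes called lower (blue, left of 0) and higher (red, right of 0) by edgeR in KO untreated against WT untreated cells, in KO acetate against KO untreated cells and for the interaction, with the number of genes beside each bar. Mitochondrial ribosomal proteins reach 15.4% higher and 16.7% lower in the left panel, 16.7% and 28.2% in the middle panel and 1.28% and 10.3% in the right panel, against 18% and 18.6%, 22.1% and 21.6%, and 6.37% and 5.54% of all tested genes.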

How the data were processed

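RNA of 16 Th17 cultures was sequenced after library preparation with TruSeq Stranded mRNA, per the labels' protocols. The authors deposited 1 table of estimated counts per gene as whole numbers. Salmon, DESeq2 and DESeq appear in the submitters' processing notes, and a genome build is not given in the sources used here. Of 15571 identifiers, 15221 matched a symbol in the gene name table and 350 did not. Groups were taken from the labels. All 14985 genes that passed filterByExpr were tested in 1 fit of the 16 libraries with edgeR 4.0.16 (R 4.3.3, limma 3.58.1) on the deposited estimated counts, using TMM and the robust quasi-likelihood test. P-values were adjusted by Benjamini-Hochberg over all genes tested. A gene was called, and is said to have risen or fallen, at an adjusted p under 0.05. Standard errors are the log2 fold change divided by the root of F. Libraries of 1 group were distinct beyond sampling noise (chi-square per degree of freedom 6.45 to 229). The fit was tested on simulated data with changes in the KO untreated libraries and 1 spread for all genes (coefficient of variation 0.144). Of 1.25-fold changes it called 8% in KO untreated against WT untreated, 4% in KO acetate against KO untreated and 0% for the interaction. Of 1.5-fold changes it called 54%, 50% and 20% in that order. In the simulation 50 of 12879 genes changed by each amount, while in the data 36.6% and 43.7% of all tested genes were called in the first and second of these comparisons. Mrps9 was called at a log2 fold change of 0.16 in KO acetate against KO untreated cells. The simulated percentages are therefore not the chance of a call for a member. A member without a call may still have changed by a small amount. Alternatives were library totals, RLE size factors, DESeq2 1.42.0, no filter on low counts, a replicate block, leaving out the high-share libraries and leaving out each library. Members named were those with the smallest adjusted p (up to 5 in each direction per comparison), 14 members with a described role, and those with extreme changes or levels; other called members are listed in full. Of the pathway lists, up to 3 called genes with the smallest adjusted p per comparison were open to naming. The members and lists were chosen with earlier results of these data known. Exon overlaps and lengths came from GENCODE vM21, and promoters from RefSeq. The summed level of the Th17 markers is not reported here.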

Additional observations from a re-analysis of the deposited data

Results flagged for a closer look

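Among 128 sets of 4 libraries, those of 32 named members in 4 groups, 5 held a library far from the other 3 by Dixon's criterion, where chance alone gives about 1 in 20. Mrpl44 was at 33.0 CPM in KO acetate 1, against 37.1 to 37.3 CPM in the other KO acetate libraries. Mrpl48 was at 29.2 CPM in WT acetate 4, against 32.8 to 33.5 CPM in the others. Mrps15 was at 58.0 CPM in WT untreated 2, against 53.7 to 54.3 CPM in the others, and its fall with acetate in WT cells was lost without that library. Mrps35 was at 35.3 CPM in WT acetate 4, against 33.1 to 33.4 CPM, and at 40.1 CPM in KO untreated 3, against 37.8 to 38.0 CPM.

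The acetate effect differed between KO and WT cells, by the interaction test, for 8 named members. On the log2 scale the difference was −0.86 for Mrpl54, −0.56 for Mrpl58, −0.50 for Mrps28, −0.41 for Mrpl48, −0.39 for Mrpl27, −0.33 for Mrps30, −0.31 for Mrpl10 and 0.29 for Mrpl39.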

How the results depend on the processing

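In each sentence here the counts are of members called, unless all genes are named. In KO untreated against WT untreated cells, 4 fell without the high-share libraries, beside 1784 of all genes. In KO acetate against KO untreated cells, 4 rose without them, beside 2509 of all genes. In WT acetate against WT untreated cells, 2 rose and 0 fell with library totals (1 at an unadjusted p under 0.05 for the fall), where 7.98% of all tested genes rose and 3.72% fell. In KO acetate against WT acetate cells, 0 rose with library totals (2 at an unadjusted p under 0.05) and 2 with DESeq2, beside 28 and 321 of all genes. There 6 fell with DESeq2, 4 with the replicate block and 4 without the high-share libraries, beside 467, 226 and 322 of all genes. For the interaction, 0 were above 0 with library totals and 0 without the high-share libraries (5 and 3 at an unadjusted p under 0.05), beside 939 and 546 of all genes. Below 0 were 4 under each, beside 442 and 464 of all genes. Leaving out 1 library at a time gave 9 to 13 higher and 7 to 13 lower in KO untreated against WT untreated cells, 4 to 13 higher and 17 to 27 lower in KO acetate against KO untreated cells, 0 to 1 higher and 0 to 1 lower in WT acetate against WT untreated cells, 0 to 1 higher and 0 to 6 lower in KO acetate against WT acetate cells, and 0 to 1 above and 5 to 13 below 0 for the interaction. In these fits 2209 to 2768 of all genes rose and 2282 to 2846 fell in the first of these comparisons. In the second 2889 to 3359 of all genes rose and 2856 to 3306 fell. In the third 813 to 1249 rose and 734 to 1168 fell, and in the fourth 12 to 236 rose and 7 to 425 fell. The interaction was called above 0 for 680 to 1084 of all genes and below 0 for 577 to 915. No call reversed its direction under the alternatives run. Of the 42 calls of named members, 42 were kept with RLE size factors, DESeq2, no filter or the replicate block. With library totals 32 were kept, and 28 without the high-share libraries. The cause was not tested, and the last setting also has fewer libraries. Named members were chosen in part by a small adjusted p. Of all 35 member calls in KO acetate against KO untreated cells, RLE size factors kept 34, no filter 33 and library totals 28. Without the high-share libraries 22 were kept. Of the 25 in KO untreated against WT untreated cells, library totals kept 22, and 12 were kept without the high-share libraries. Over all tested genes KO acetate against WT acetate cells gave 150 calls by edgeR, 788 by DESeq2, 408 with the block, 535 without the high-share libraries and 78 with library totals. Whether same-numbered libraries are pairs is not stated in the labels, and the main fit did not treat them as pairs. Their deviations from the group means correlated by −0.08 to 0.23 (median 0.05), above 0.1 in 9 of 24 pairs. The median for different numbers was −0.01. Such correlations cannot decide whether libraries shared a mouse or a batch, so the pairing is unresolved. Between KO acetate and KO untreated libraries the 4 same-numbered pairs correlated by 0.09 to 0.17, and every library there correlated best with its own number. Between other groups this did not hold. WT untreated 4 correlated by −0.08 with KO acetate 4 and by 0.16 with KO acetate 3. KO untreated 3 correlated by −0.06 with WT untreated 3 and by 0.16 with WT untreated 4. With the replicate block 13 members rose and 13 fell in KO untreated against WT untreated cells, beside 2858 and 3028 of all genes. In KO acetate against KO untreated cells 13 rose and 22 fell, beside 3454 and 3397 of all genes. For the interaction 10 were below 0, beside 1037 of all genes. Depth limited Mrpl23 most, whose mean was 3.21 CPM.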
